A study of Mus musculus with 16 samples.

Results

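The TEAD family of DNA-binding factors and the Vestigial-like cofactors that bind them were examined in bone endothelial cells (ECs) of mice. The members were taken by name. They were Tead1, Tead2, Tead3, Tead4, Vgll3 and Vgll4, and all 6 were found in each of the 3 expression tables, the largest of which holds 38926 gene names. There were 16 RNA-seq libraries of ECs on a C57BL/6 background. Wild-type ECs that carried the Cdh5-mT/nG reporter, which is driven by the endothelial Cdh5 gene, came from the femoral metaphysis (mpECs, n = 3) or from the marrow cavity of the shaft (bmECs, n = 3) of 3-week-old mice. The second set held 3 control libraries (Yap1flx/flx; Wwtr1flx/flx, without Cdh5CreERT2) and 3 libraries labelled Yap1/Taz iΔEC (the same alleles with Cdh5CreERT2), all at postnatal day 21. The third held 2 control libraries (Lats2flx/flx without Cdh5CreERT2) and 2 Lats2 iΔEC libraries (with Cdh5CreERT2), also from ECs of 3-week-old bone. Cdh5CreERT2 is a tamoxifen-inducible recombinase expressed in ECs, so controls carry the loxP sites without the recombinase. The files hold 1 value per gene, so exons inside and outside a deleted stretch cannot be told apart, nor can ECs that escaped recombination. The methods speak of biological replicates without tying libraries to animals, so p-values measure the spread between these libraries.

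TEAD proteins bind DNA but activate transcription mainly through partners. In the Hippo pathway the kinases Lats1 and Lats2 phosphorylate Yap1 and Taz (encoded by Wwtr1) and keep them out of the nucleus, and when that brake is off Yap1 and Taz enter the nucleus and bind TEAD proteins at target genes. Vgll proteins reach TEADs through a short Tondu motif, and Vgll4 competes with Yap1 for the same TEAD surface and is known as an antagonist of Yap1-driven transcription.

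Values are FPKM, in which fragment numbers are divided by gene length and by the size of the library, so genes can be set against each other within a library. The 3 tables were normalized separately and are compared only within themselves. Reads recovered from the FPKM values came to 11122416 to 14756141 on genes per library for mpECs and bmECs, 4889945 to 7162965 for the Yap1/Taz libraries and 4732684 to 7074015 for the Lats2 libraries. In the Yap1/Taz set neither targeted gene was called lower in the libraries labelled mutant. Yap1 was at 1.07, 1.62 and 0.995 FPKM in controls and at 1.43, 1.03 and 0.989 FPKM in the libraries labelled Yap1/Taz iΔEC (log2 fold change -0.04, SE 0.18, limma adjusted p = 0.934). Wwtr1 was at 10.01, 9.88 and 10.3 FPKM in controls and at 15.3, 19.6 and 19.5 FPKM in the labelled mutants, every one of them above every control (log2 fold change 0.78, SE 0.12, limma adjusted p = 0.0272, range over 15 alternative fits 0.00749 to 0.18). That call was lost in 6 of the 15, including those without control replicate 2 (0.0752) or 3 (0.0715) or labelled mutant replicate 2 (0.18) or 3 (0.144). Ctgf, a target gene of Yap1/Taz that is named after its values were seen (listed as Ccn2 in this table), was at 11.7 to 22.4 FPKM in controls and 4.78 to 16.2 FPKM in the labelled mutants, which did not pass the test (log2 fold change -0.83, SE 0.37, limma adjusted p = 0.282). Cyr61, another target (listed as Ccn1 here and also named after its values were seen), had a higher mean in the labelled mutants. It was at 11.2 to 16 FPKM in controls and 15 to 23 FPKM in the labelled mutants (log2 fold change 0.46, limma adjusted p = 0.204). Of 15 tested genes on a list of such targets, 11 had values above 0 and 4 below. The median log2 fold change of the list was 0.03, beside -0.0047 over all genes tested, and limma and limma-voom each called 0. Each direction drawn from this set refers to the libraries as labelled. Lats2 was at 23.4 and 24.0 FPKM in controls and at 19.2 and 19.2 FPKM in Lats2 iΔEC libraries, a lower level in both that did not pass the test (log2 fold change -0.29, SE 0.11, limma adjusted p = 0.125), and 42.4% of the Lats2 exon bases are shared with another annotated gene on the same strand. The 8 EC markers, among them Pecam1, Cdh5 and Emcn, were above 0 in every library and summed to 449.4 to 1707 FPKM, but marrow genes were also present. The 7 neutrophil markers summed to 702.9 to 27730 FPKM and the 5 erythroid markers to 146.1 to 37670 FPKM.

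Vgll4 and Tead2, the members with the highest levels, are shown with the bases before their RefSeq start. Vgll4 lies on chromosome 6 of GRCm38 from 114860628 to 114969994 on the minus strand, and Tead2 on chromosome 7 from 45215753 to 45233644 on the plus strand. The Vgll4 window, chr6:114969204-114969453 on the minus strand, falls between alternative first exons of the gene and overlaps none of them. The Tead2 window, chr7:45215542-45215752 on the plus strand, stops where the first annotated exon begins, which leaves out 39 of 250 bases. Capitals mark GGAATG or CATTCC, the core of the TEAD motif on either strand, and ACGTG or CACGT, the core of the hypoxia response element bound by HIF factors, which overlaps the E-box CACGTG. The sequences are from RefSeq on GRCm38.p6.
Vgll4: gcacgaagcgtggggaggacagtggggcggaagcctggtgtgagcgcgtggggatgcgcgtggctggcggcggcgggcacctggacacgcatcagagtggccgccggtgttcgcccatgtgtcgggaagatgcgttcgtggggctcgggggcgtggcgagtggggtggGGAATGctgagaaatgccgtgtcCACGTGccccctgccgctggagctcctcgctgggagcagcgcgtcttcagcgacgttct
Tead2: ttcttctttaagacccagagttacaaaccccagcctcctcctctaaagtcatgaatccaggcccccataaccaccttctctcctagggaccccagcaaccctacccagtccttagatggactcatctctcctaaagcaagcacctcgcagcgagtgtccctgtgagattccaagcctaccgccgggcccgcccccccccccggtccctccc
The Vgll4 window held 1 TEAD motif, 82 bases before the start, and a CACGTG 59 bases before it that counts as a hypoxia response core on both strands. The 250 bases before the Tead2 start held neither. Among 32851 promoter windows of 250 bases, 12.6% held the TEAD motif and 16.6% the hypoxia response core. Of the other members, entries were found for Tead3, with 3 start sites, and for Vgll3. The TEAD motif was present in the Vgll3 window and in those of 2 Tead3 starts, and the hypoxia response core in none of these. A match is a run of letters and not a shown binding site.

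Within every library the order of levels was led by Vgll4 and then Tead2. Vgll4 lay between 14.6 and 38.3 FPKM over the 16 libraries and exceeded every other member in 16 of 16, and it exceeded the summed FPKM of the 4 Tead genes by 2.23 to 5.65 times. Averaged over its table, it was above 88.6%, 83.5% and 87.4% of the genes with any signal in the mpEC and bmEC, Yap1/Taz and Lats2 tables. Tead2 ranged from 2.17 to 8.46 FPKM and was above Tead1, Tead3 and Tead4 in 16 of 16 libraries. Tead1 and Tead4 followed at 0.446 to 2.04 and 0.323 to 3.32 FPKM. Their order differed between tables. Tead1 was the higher in each of the 6 mpEC and bmEC libraries, and Tead4 the higher in each of the other 10.

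Tead3 was near the limit of detection. In the mpEC and bmEC table it was listed at 0 in 4 libraries and at 0.0228 and 0.024 FPKM in the others, which is 1 read each. A count of 0 allowed up to 0.0552 to 0.0829 FPKM there (3 reads, counting error only). In the Yap1/Taz table it reached 0.198 to 0.48 FPKM, or 6 to 12 reads, in all 6 libraries, and in the Lats2 table it was at 0.274 FPKM in control replicate 1 and at 0 in the other 3. Vgll3 was at 0 in 14 of 16 libraries and at 0.0486 FPKM in Yap1/Taz control replicate 3 and 0.0605 FPKM in Lats2 iΔEC replicate 2. Taking those values as 1 read each, a count of 0 allowed up to 0.243 FPKM in the shallowest library. The remaining family genes Vgll1 and Vgll2 were at 0 in all 16 libraries. No fold change is given for any of these 4 genes.

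**Figure D1:**
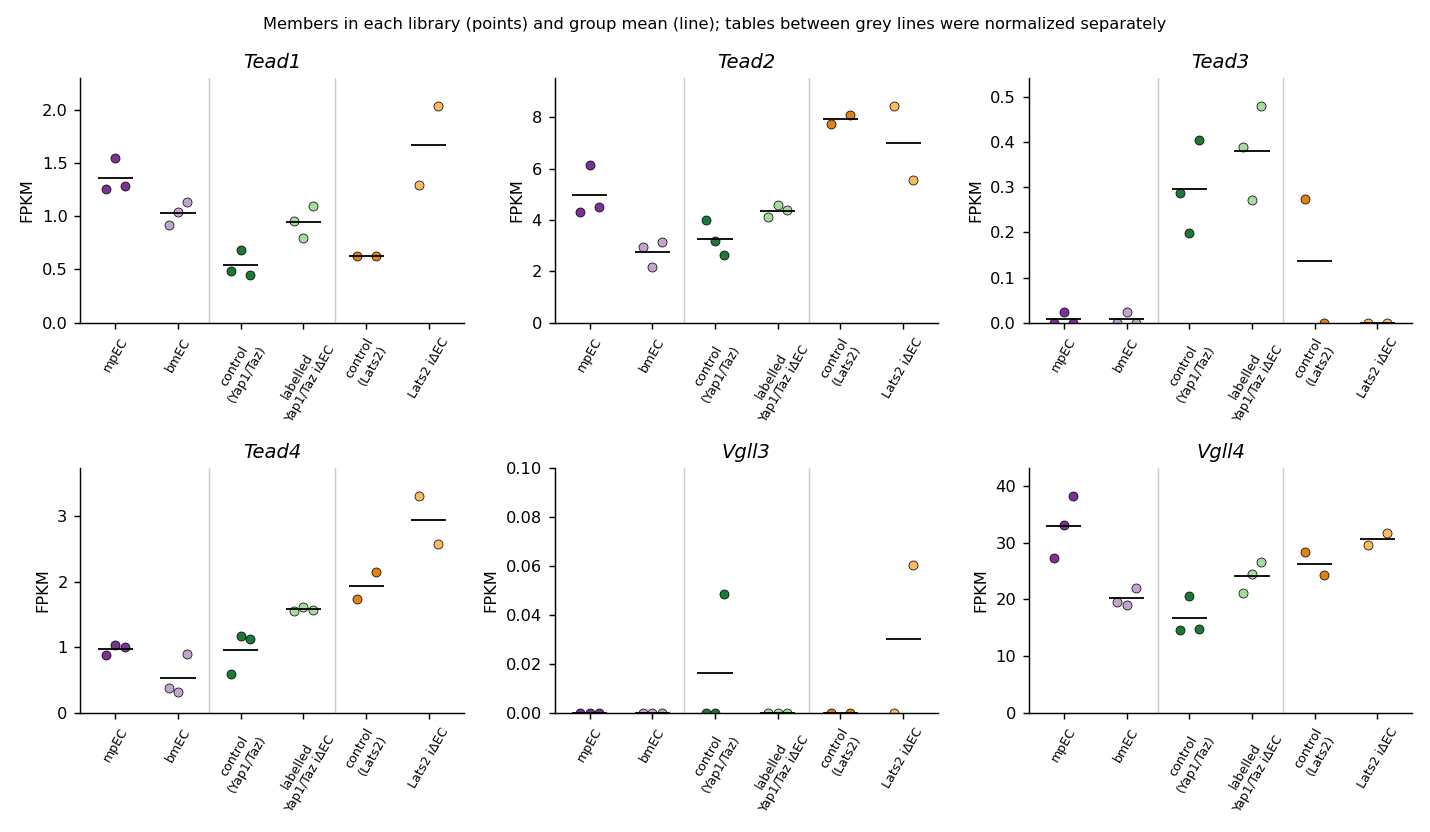
FPKM of each member (y axis, starting at 0, with its own range in each panel) in the 6 groups (x axis), with 1 point per library and a line at the group mean. Vgll4 lies between 14.6 and 38.3 FPKM and Vgll3 at 0 in 14 of 16 libraries, and groups separated by a grey line come from tables that were normalized separately.

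Tead2 made up most of the Tead family in every library. Of the summed FPKM of the 4 Tead genes it held 60.8% to 70.4% in mpECs and bmECs, 57.1% to 74.7% in the Yap1/Taz libraries and 54.6% to 74.6% in the Lats2 libraries. The Tead1 share was 18.7% ± 0.958 (SD, n = 3) in mpECs and 24.2% ± 4.21 in bmECs, with no overlap (17.6% to 19.5% against 21.7% to 29.1%). An exact two-sided permutation test gave p = 0.1, the smallest that 3 against 3 libraries allow, and 0.4 after adjustment over the 4 genes. The FPKM of Tead1 was itself lower in bmECs, at 75.7% of the mpEC mean, beside 55.2% for Tead2. In the libraries labelled Yap1/Taz iΔEC the shares of all 4 genes overlapped those of controls (exact permutation p of 0.2 to 1). In Lats2 iΔEC the Tead2 share was 64.7% and 54.6%, against 74.6% and 74.5% in controls. The Tead1 share was 6.03% and 5.77% in controls and 9.92% and 20.1% in Lats2 iΔEC, and that of Tead4 16.7% and 19.8% in controls and 25.4% and 25.3% in Lats2 iΔEC. The mutants did not overlap the controls for any of these 3 genes. Shares within a library have a fixed sum, so a lower Tead2 share raises the others, and the 3 differences are not independent. With 2 against 2 libraries the exact permutation test cannot give a p below 0.333, the value found for each of these genes (adjusted p = 0.444).

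**Figure D2:**
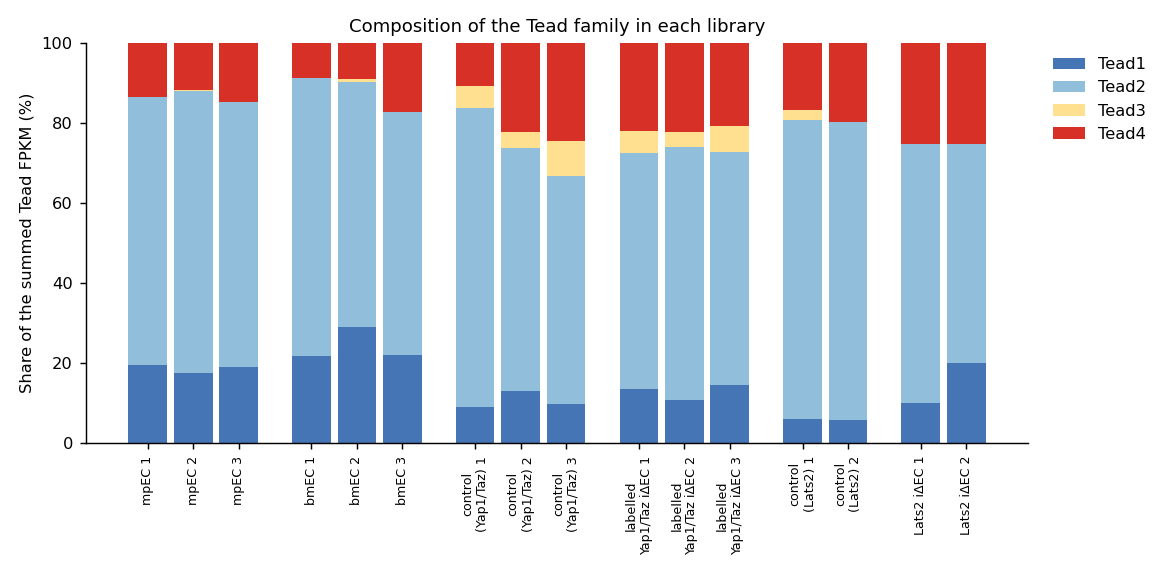
Share of each Tead gene (stacked bars, in percent of the summed Tead FPKM, y axis) in each of the 16 libraries (x axis). The Tead2 share is the largest in every library, and it is at 64.7% and 54.6% in the Lats2 iΔEC libraries against 74.6% and 74.5% in their controls.

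The first comparison asked how ECs of the marrow cavity differ from those of the metaphysis. Vgll4 and Tead2 were both lower in bmECs. Vgll4 was at 27.4, 33.2 and 38.3 FPKM in mpECs (1369 to 1538 reads) and at 19.6, 19.0 and 21.9 FPKM in bmECs (667 to 1067 reads). Read numbers of Vgll4, here and below, depend on the gene length taken, which its FPKM values did not settle. All bmEC libraries were below all mpEC libraries, and the bmEC mean was 61.2% of the mpEC mean. The log2 fold change, on the scale of log2(FPKM + 1), was -0.67 (SE 0.13, limma adjusted p = 0.0074), and the adjusted p stayed between 0.00297 and 0.0304 in the 15 alternative fits. Tead2 was at 4.30, 6.16 and 4.50 FPKM in mpECs and at 2.94, 2.17 and 3.15 FPKM in bmECs, again without overlap. Its log2 fold change was -0.67 (SE 0.16, limma adjusted p = 0.0205). The Tead2 call was lost without the filter on low genes (adjusted p = 0.0563), without mpEC replicate 2 (0.0601) and without bmEC replicate 2 (0.0636), in a range of 0.0161 to 0.0636 over 14 alternatives.

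Tead1 was at 1.25, 1.54 and 1.28 FPKM in mpECs and at 0.919, 1.03 and 1.13 FPKM in bmECs. The groups did not overlap, but the difference was small beside its error (log2 fold change -0.22, SE 0.13, limma adjusted p = 0.278). Tead4 was at 0.878, 1.03 and 1.00 FPKM in mpECs and at 0.372, 0.323 and 0.898 FPKM in bmECs, so that bmEC replicate 3 lay within the mpEC range while replicates 1 and 2, with 11 reads each, lay below it. Its mean was under the filter of 1 FPKM, and without the filter its log2 fold change was -0.38 (SE 0.16, limma adjusted p = 0.211). Limma-voom with a filter at 10 reads gave -0.93 (SE 0.40, adjusted p = 0.125). Of the 6 members, 3 passed the filter, and 2 of these were called, both lower. Over all 11422 genes tested, 10.5% were called lower and 23.5% in either direction. Groups did not overlap, with bmECs lower, for the 3 members that passed and for 19.2% of all genes tested.

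Markers of bone, stromal and blood cells moved with this comparison. Of 8 osteoblast markers, 6 were tested and 4 were called lower in bmECs, with 0 higher and a median log2 fold change of -4.35, and they summed to 138.5 to 736.7 FPKM in mpECs against 42.9 to 55.2 in bmECs. The 5 chondrocyte markers summed to 13.5 to 16.8 FPKM in mpECs and at most 0.0682 FPKM in bmECs. Among the mpECs, replicate 3 had the lowest osteoblast sum (138.5 FPKM) and the highest Vgll4 (38.3 FPKM), and replicate 1 the highest sum (736.7 FPKM) and the lowest Vgll4 (27.4 FPKM). Tead2 was also lowest in replicate 1 (4.30 FPKM) but highest in replicate 2 (6.16 FPKM). Replicate 1 had the highest neutrophil (27730 FPKM), macrophage (1867 FPKM) and erythroid (32820 FPKM) sums of the mpECs as well. Its sum of EC markers was the lowest of the mpECs, at 795.3 FPKM against 1011 FPKM in replicate 2 and 972.8 FPKM in replicate 3. Of 4 tested markers of pericytes and marrow stroma, 2 were called higher in bmECs. They were Lepr (log2 fold change 1.85) and Adipoq (1.5). The other 2, Acta2 (-0.86) and Rgs5 (-1.52), had lower values in bmECs and were not called. All 4 are named after their values were seen. The list thus went both ways, and it summed to 26.1 to 34.7 FPKM in mpECs against 30.3 to 62.5 FPKM in bmECs. Of 3 tested macrophage markers, Lyz2 was called lower (-0.82), with sums of 1021 to 1867 against 663.7 to 932.5 FPKM. All 7 neutrophil markers had values below 0 (median -0.67), of which limma and limma-voom called 0 and 4 had an unadjusted p under 0.05. The part of these cells in the differences of Tead2 and Vgll4 was not tested. In sorted pools like these, fewer cells of a type and less RNA per cell cannot be told apart. Of the 8 EC markers 3 were called higher and 3 lower in bmECs, with a median of 0.04.

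The second comparison addressed what loss of Yap1 and Taz does to bone ECs, with the reservation on labels given above. For Tead1, Tead2, Tead4 and Vgll4 each library labelled Yap1/Taz iΔEC lay above each control, but none of these genes passed the test. Vgll4 was at 14.6, 20.5 and 14.9 FPKM in controls (286 to 584 reads) and at 21.1, 24.4 and 26.7 FPKM in the labelled mutants (407 to 626 reads). The groups touch, with control replicate 2 just below the lowest labelled mutant, and the log2 fold change was 0.52 (SE 0.14, limma adjusted p = 0.104, unadjusted p = 0.00513). Over the 15 alternatives the adjusted p ranged from 0.0557, with limma-voom on the recovered reads, to 0.32. Vgll4 is also on a list of HIF-related genes that the study drew from these same libraries, so its direction is not independent of that choice.

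Tead2 was at 4.02, 3.17 and 2.63 FPKM in controls and at 4.13, 4.58 and 4.37 FPKM in the labelled mutants, with control replicate 1 just under the lowest of them (log2 fold change 0.34, SE 0.15, limma adjusted p = 0.264). Tead4 was at 0.586, 1.17 and 1.12 FPKM against 1.55, 1.62 and 1.57 FPKM, and the labelled mutants were tightly grouped above all controls (log2 fold change 0.41, SE 0.18, limma adjusted p = 0.266, 10 to 34 reads per library). Tead1 was at 0.487, 0.685 and 0.446 FPKM against 0.953, 0.792 and 1.10 FPKM. It fell below the filter, and without the filter its log2 fold change was 0.34 (SE 0.11, limma adjusted p = 0.218). Limma-voom with a filter at 10 reads gave 0.80 (SE 0.26, adjusted p = 0.112). Tead3 overlapped, at 0.287, 0.198 and 0.404 FPKM against 0.39, 0.272 and 0.48 FPKM.

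With limma, 0 of the 3 members that passed the filter were called, against 0.883% of 11320 genes called higher, 0.424% lower and 1.31% in either direction. All 3 had an unadjusted p under 0.05, as 2023 genes did, and limma-voom called 0 members. Their groups did not overlap, with the labelled mutants higher, as for 12.3% of all genes tested. The 8 EC markers were each higher, with a median log2 fold change of 0.29 and 0 called (limma). Of these, 7 had an unadjusted p under 0.05 and limma-voom called 2. They summed to 449.4 to 453.2 FPKM in controls against 510.9 to 609.5 FPKM in the labelled mutants. Osteoblast markers summed to 37.9 to 52.2 FPKM in controls and 10.7 to 24.5 FPKM in the labelled mutants, with 3 of 6 tested called lower. Macrophage markers summed to 709.1 to 997 FPKM in controls and 604.9 to 705 FPKM in the labelled mutants, and B cell markers to 193.2 to 221.9 against 156.2 to 161 FPKM, with 0 of 4 called by limma in each list. The unadjusted p was under 0.05 for 2 macrophage and 4 B cell markers, and limma-voom called 0 in each list. The part of these shifts in the values of the members was not tested.

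The third comparison concerned the loss of Lats2, the kinase that restrains Yap1 and Taz. Tead1 was the member with the largest shift. It was at 0.626 and 0.628 FPKM in controls (35 and 42 reads) and at 1.30 and 2.04 FPKM in Lats2 iΔEC (55 and 114 reads), so the mutant mean was 266% of the control mean. The log2 fold change was 0.70 (SE 0.26, limma adjusted p = 0.118). On recovered reads, limma-voom gave a log2 fold change of 1.40 and an adjusted p of 0.0181, and 0.0185 with a filter at 10 reads, in a range of 0.0181 to 0.344 over 11 alternatives. The reads fitted there were scaled by annotated exon length and were 1.21 times those given above. Tead1 was thus called by limma-voom and not by limma on FPKM. Calls were common in this comparison, where limma called 21.8% of all genes in either direction.

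Tead4 was at 1.73 and 2.15 FPKM in controls and at 3.32 and 2.57 FPKM in Lats2 iΔEC, without overlap (log2 fold change 0.42, SE 0.21, limma adjusted p = 0.205). Vgll4 was at 28.3 and 24.3 FPKM against 29.7 and 31.8 FPKM (log2 fold change 0.22, SE 0.13, limma adjusted p = 0.277). Tead2 overlapped, at 7.75 and 8.10 FPKM against 8.46 and 5.55 FPKM, and its change of -0.18 (SE 0.21, limma adjusted p = 0.565) turned to 0.08 without Lats2 iΔEC replicate 2. Wwtr1 rose, from 53.8 and 58.9 FPKM to 83.3 and 92.5 FPKM (log2 fold change 0.63, SE 0.12, limma adjusted p = 0.0257), while Yap1 was at 2.13 and 2.14 FPKM against 2.12 and 1.95 FPKM (log2 fold change -0.05, SE 0.19). The Wwtr1 call was lost without either control library (adjusted p of 0.214 and 0.167) or without Lats2 iΔEC replicate 2 (0.0729), in a range of 0.0124 to 0.214 over 13 alternatives.

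With limma, 0 of the 4 members that passed the filter were called, against 11.8% of 12451 genes called higher, 9.98% lower and 21.8% in either direction. One member, Tead1, had an unadjusted p under 0.05, as 4805 genes did. Groups did not overlap, with mutants higher, for Tead1, Tead4 and Vgll4 and for 34.0% of all genes. With either control library left out, 0 genes of the whole table were called. Markers of blood and stromal cells moved in the same libraries. Of 5 tested markers of pericytes and marrow stroma, 2 were called higher in Lats2 iΔEC. They were Acta2 (log2 fold change 2.36) and Rgs5 (1.53). Of the 5, 4 had values above 0 and 1 below. The lower one was Adipoq (-1.67, limma adjusted p = 0.0736), which was not called. These 3 genes are named after their values were seen. The list summed to 16.6 and 16.9 FPKM in controls, 25.8 FPKM in Lats2 iΔEC replicate 1 and 31.7 FPKM in replicate 2, the library with the higher Tead1 (2.04 FPKM). Neutrophil markers summed to 1918 to 2873 FPKM in controls and 702.9 to 843.1 FPKM in Lats2 iΔEC, and 5 of 7 were called lower. All 4 B cell markers were called lower as well, with sums of 73.6 to 86.2 against 16.3 to 23.2 FPKM. The 5 erythroid markers summed to 1852 to 2559 against 146.1 to 1070 FPKM, with 1 called lower, and the 4 megakaryocyte markers to 24.4 to 64.5 against 8.89 to 10.9 FPKM, also with 1 called lower. EC markers summed to 1609 to 1707 against 1585 to 1676 FPKM, with 1 of 8 called higher and 2 lower. Their part in the values of the Tead genes was not tested.

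**Figure D3:**
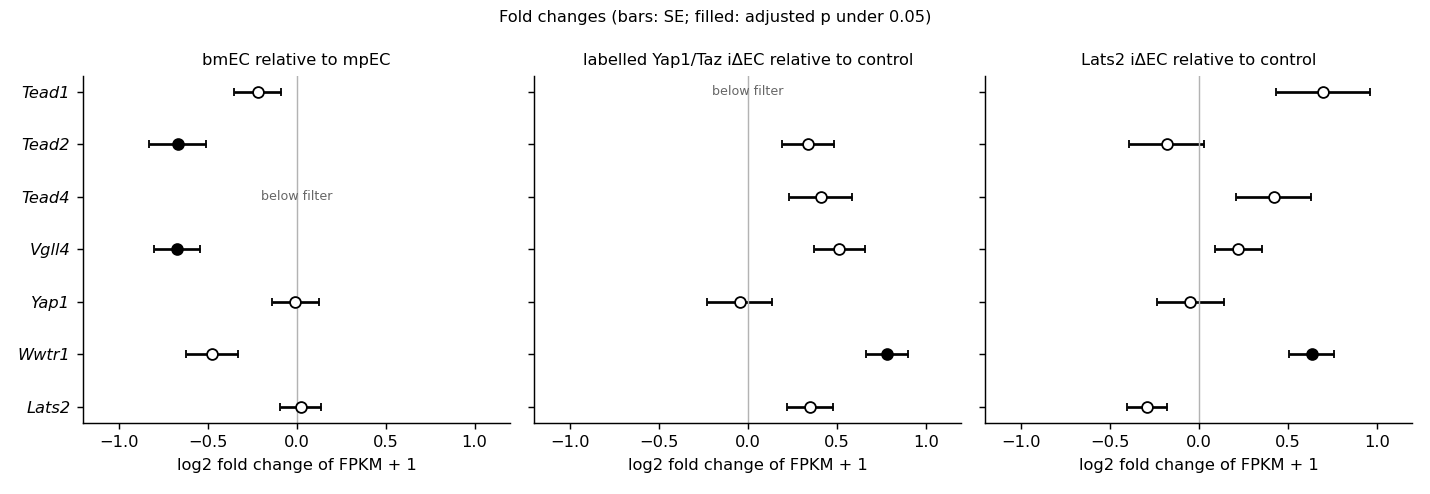
Log2 fold change on the scale of log2(FPKM + 1) (x axis; bars are SE, filled points have an adjusted p under 0.05) of the members that passed the filter in any comparison and of the pathway genes Yap1, Wwtr1 and Lats2 (y axis), in the 3 comparisons. Tead2 and Vgll4 are at -0.67 in bmECs relative to mpECs, and Wwtr1 is at 0.78 and 0.63 in the other 2 comparisons.

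Because Vgll4 shares its TEAD surface with the coactivators, its FPKM was set against the sum of Yap1 and Wwtr1 in each library, a quantity that does not depend on library scaling. This is a ratio of RNA. Amounts of the proteins and their entry into the nucleus were not measured in these libraries, so it does not measure competition at TEADs. The log2 ratio was 1.21, 1.10 and 1.23 in mpECs and 0.84, 0.69 and 1.22 in bmECs, so bmEC replicate 3 lay within the mpEC range (difference -0.26, exact two-sided permutation p = 0.3). Without bmEC replicate 2 the difference was -0.15, and without bmEC replicate 3 it was -0.41. In the Yap1/Taz set it was 0.40, 0.84 and 0.39 in controls and 0.34, 0.24 and 0.38 in the labelled mutants, all of which lay just below the lowest control (difference -0.22, exact permutation p = 0.1, the smallest that 3 against 3 libraries allow). The difference was -0.07 without control replicate 2. In the Lats2 set it was -0.98 and -1.33 in controls and -1.53 and -1.57 in Lats2 iΔEC (difference -0.39, exact permutation p = 0.333, the smallest that 2 against 2 allow). It was -0.22 without control replicate 1. The FPKM of Vgll4 exceeded that of Yap1 and Wwtr1 together in every library of the first and second tables and was below it in the third, where Wwtr1 was at 53.8 to 92.5 FPKM. That order depends on the gene lengths behind the FPKM. The length implied for Vgll4 was 1.31 times shorter than the annotated one and was not settled. In the labelled Yap1/Taz mutants, with log2 ratios of 0.24 to 0.38, the order is therefore not secure.

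The upstream Hippo genes were read against the share of all genes called in each comparison. Of 21 listed genes of the kinase cascade and its regulators, 19 were tested between bmECs and mpECs, and 1 was called higher and 0 lower, where 23.5% of all genes were called. It was Stk3, which encodes the kinase Mst2 that acts above Lats1 and Lats2, at 29.9 to 30.3 FPKM in mpECs and 35.7 to 41.6 FPKM in bmECs (log2 fold change 0.35, limma adjusted p = 0.0195), a call lost in 4 of 15 alternatives, with adjusted p up to 0.074. With limma, 0 of 20 were called in the libraries labelled Yap1/Taz iΔEC, where 1.31% of all genes were called, 3 had an unadjusted p under 0.05 and limma-voom called 1. In Lats2 iΔEC 2 of 19 were called, both higher, beside 21.8% of all genes. They were Ajuba, a LIM protein that binds Lats kinases (log2 fold change 1.58, from 7.11 to 8.49 FPKM in controls up to 24.0 to 26.5 FPKM), and Amotl2, which tethers Yap1 outside the nucleus and is itself a TEAD target (0.88). The medians of the list were -0.0029, 0.07 and -0.16, beside -0.00068, -0.0047 and -0.0031 over all genes tested.

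Of 22 listed target genes of Yap1/Taz and TEAD, 18 were tested in Lats2 iΔEC, and 7 were called higher and 1 lower, beside 11.8% and 9.98% of all genes, with a median log2 fold change of 0.64. Cyr61, a secreted matrix protein and classical target, was at 28.3 to 44.3 FPKM in controls and 316 to 537 FPKM in Lats2 iΔEC (log2 fold change 3.50, SE 0.32, limma adjusted p = 0.00809). Myof, a membrane repair protein, changed by 3.25, Tgfb2, a TGF-β ligand, by 2.97 and Ctgf, another matricellular protein, by 2.61. Axl, a receptor tyrosine kinase, was the only one called lower, from 30.3 to 30.6 FPKM down to 5.75 to 6.95 FPKM (log2 fold change -2.10), and it is named after its values were seen. None of these calls held when either control library was left out.

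Between bmECs and mpECs, 2 of 15 tested targets were called higher and 4 lower, where 23.5% of all genes were called, with a median of -0.12. The 4 largest were Igfbp3, a binding protein of insulin-like growth factors (-2.82, from 40.2 to 57.2 FPKM in mpECs down to 4.31 to 10.5 FPKM in bmECs), Axl (2.06), Nt5e, which encodes the ectonucleotidase CD73 (-1.13), and Tgfb2 (-1.07, a call lost in 4 of 14 alternatives, with adjusted p up to 0.0713). In the libraries labelled Yap1/Taz iΔEC, limma and limma-voom each called 0 of 15, where limma called 1.31% of all genes, while 3 had an unadjusted p under 0.05, and the median was 0.03. Genes of AP-1, a factor that sits beside TEADs at enhancers, were called in both directions between bmECs and mpECs. Of all genes tested there, 23.5% were called. Jun (1.31) and Junb (1.11) were higher and Fosl1 (-1.0) lower in bmECs among 7 tested, with a median of 0.47, and the Jun call was lost in 8 of 15 alternatives, with adjusted p up to 0.137. In the libraries labelled Yap1/Taz iΔEC 0 of 7 AP-1 genes were called by limma, 5 had an unadjusted p under 0.05, limma-voom called 2, and the median was 0.43. Over all 11320 genes tested there, limma called 1.31%, and 2023 had an unadjusted p under 0.05. In Lats2 iΔEC 1 of 7 was called, Fosl2 (0.61), which lost the call in 7 of 13 alternatives, with adjusted p up to 0.277. Limma called 21.8% of all genes in that comparison.

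**Figure D4:**
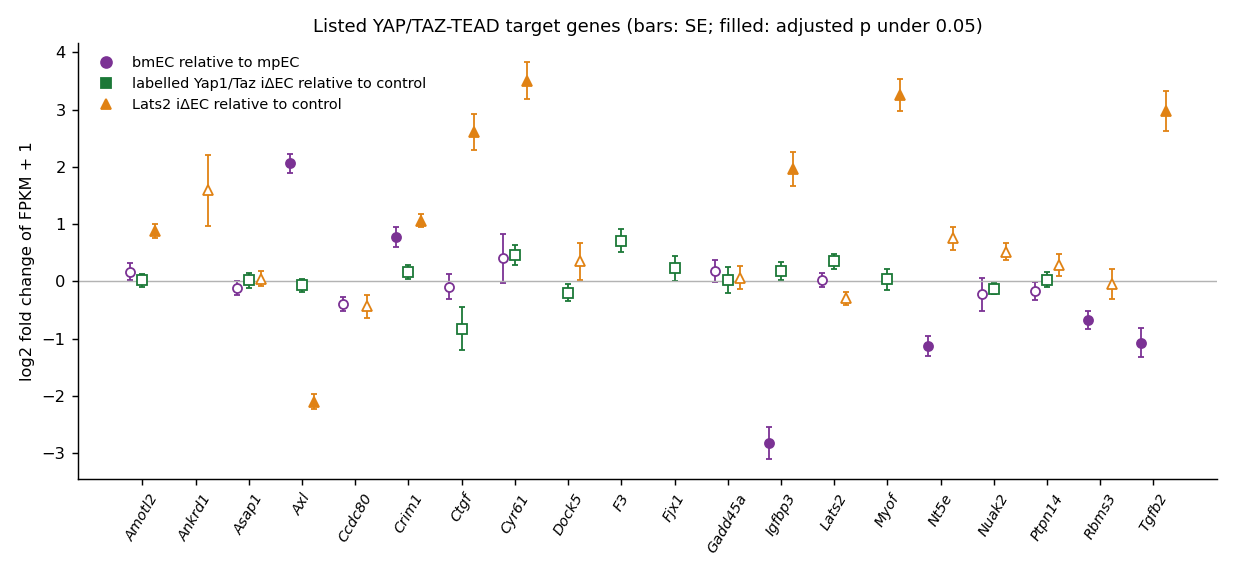
Log2 fold change on the scale of log2(FPKM + 1) (y axis; bars are SE, filled symbols have an adjusted p under 0.05) of the listed Yap1/Taz-TEAD targets that were tested (x axis) in the 3 comparisons, each with its own symbol. Cyr61, Myof, Tgfb2 and Ctgf lie between 2.61 and 3.50 in Lats2 iΔEC, and Axl is at 2.06 in bmECs and at -2.10 in Lats2 iΔEC.

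Tead2 and Vgll4 passed the filter in all 3 tables, so their patterns were compared with those of 9068 other genes over the 16 libraries, after each table was centred on its own mean. Tead2 was most like Ptk7, a Wnt co-receptor of planar cell polarity (Pearson r = 0.933), Fmnl3, an actin-nucleating formin (0.858), and Gramd1a, a sterol transporter (0.853). Vgll4 was most like Mn1, a transcriptional coregulator (0.925), Flt1, the VEGF receptor 1 of ECs (0.922), and Itga2, an integrin collagen receptor (0.919). The correlation between Tead2 and Vgll4 was 0.655, which ranked 222nd among the genes compared with Tead2. For Vgll4 it was 0.79 with Wwtr1, which ranked 100th, 0.677 with the EC marker Cdh5 and 0.138 with Yap1. These correlations describe libraries that share tables, groups and depth.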

How the data were processed

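RNA-seq was measured in sorted bone ECs. According to the study's methods, total RNA libraries (a stranded kit, MiSeq, paired-end) were aligned by TopHat to GRCm38, and HTSeq 0.6.1 gave counts for each gene. The authors deposited FPKM values; how counts became FPKM, the gene lengths and the strand setting are not given in the sources used here. The study's own tests used DESeq2 on counts that were not used here.

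Genes that averaged 1 FPKM or more in a comparison were tested as log2(FPKM + 1) with limma 3.58.1 (R 4.3.3), with a group term and a mean-variance trend. The p-values were two-sided and Benjamini-Hochberg adjusted over all genes tested, and a gene was called at an adjusted p under 0.05. The pseudocount understates changes of low genes. Reads were recovered from the steps of the FPKM values, with GENCODE M21 lengths. Whole reads, to within 0.02, were obtained for 62.3% to 70.0% of the low values of a library. Limma-voom was run on these reads. Lengths implied by the FPKM of the members other than Vgll3 were 1.00 to 1.53 times shorter than the GENCODE exon union. Read numbers printed for the members use the implied lengths. More than 1 range of lengths fitted each member, up to 19 for Vgll4. The shortest was taken, which gives the fewest reads. No 2 replicates agreed within counting noise. In the table for Lats2, 27 names had turned into dates, and the repeated ones were left out. Floors are 3 reads and cover counting error only. Shares and ratios were compared by exact permutation tests. Only the main limma fit was tested on simulated data, drawn with the same dispersion for every gene. The read recovery, limma-voom and the permutation tests were not tested in this way. Python 3.11.15 with pandas 2.3.3 and matplotlib 3.10.9 was used.

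Named were the members, targeted genes, up to 4 called genes per list with the largest change, and the 3 genes most like a member. The members and lists were chosen with earlier results of these data known. Alternatives were a pseudocount of 0.1, no filter, a filter at 5 FPKM, quantile and median-ratio scaling, no trend, limma-voom on recovered reads, a replicate block and each library left out. The voom fit with a filter at 10 reads was chosen after the data were seen.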

Additional observations from a re-analysis of the deposited data

How the results depend on the processing

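In bmECs against mpECs, 2 members were called lower with most settings, but 1 was called without the filter and 1 with a filter at 5 FPKM, which only Vgll4 passes; leaving out 1 library gave 1 to 2 members, 1018 to 1353 genes higher and 799 to 1026 lower. In the libraries labelled Yap1/Taz iΔEC the numbers of genes called higher and lower were 100 and 48, and they were 0 and 1 without the filter, 10 and 7 without the trend, 271 and 115 with limma-voom, 243 and 92 with limma-voom and a filter at 10 reads, and 0 to 215 and 1 to 78 when 1 library was left out. In Lats2 iΔEC they were 1468 and 1243, and 720 and 669 without the filter, and 0 to 1446 and 0 to 1255 when 1 library was left out. There limma-voom called 1 member higher, with and without the filter at 10 reads, in a comparison where limma called 11.8% of all genes higher.

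Libraries were treated as sharing only a replicate number, since same-numbered libraries did not all correlate above 0.1 in their deviations (0.0876, 0.102 and 0.307 for mpECs and bmECs, -0.175 to -0.123 for Yap1/Taz and 0.0651 for Lats2). For mpECs and bmECs those 3 were positive, beside -0.206 to 0.115 for different numbers, and mpEC replicate 2 correlated best with bmEC replicate 3, so pairing there was not settled. With a replicate block, 29 genes were called higher and 16 lower in the labelled Yap1/Taz iΔEC libraries, 1597 and 1475 in bmECs and 1457 and 1198 in Lats2 iΔEC. The block changed no call of a member.

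The sign of a Tead share, in percentage points, depended on single settings. The Tead4 share in bmECs turned to 0.376 with quantile normalization. Leaving out 1 library gave -0.0867 to 0.251 for Tead3 in bmECs, and in the Yap1/Taz set -7.67 to 1.11 for Tead2, -1.83 to 0.662 for Tead3 and -1.68 to 5.07 for Tead4. In Lats2 iΔEC it gave -2.64 to 0 for Tead3. The log2 ratio of Vgll4 to Yap1 and Wwtr1 differed by -0.413 to -0.15 in bmECs, -0.298 to -0.0743 in the Yap1/Taz set and -0.566 to -0.219 in Lats2 iΔEC when 1 library was left out. Of single genes with changes near 0, Yap1 in bmECs turned to 0.0744 with quantile normalization. Leaving out 1 library gave -0.0905 to 0.0471 for it, -0.0563 to 0.0914 for Lats2 in bmECs, -0.136 to 0.0773 for Yap1 in the labelled Yap1/Taz iΔEC libraries and -0.446 to 0.0836 for Tead2 in Lats2 iΔEC. The causes were not tested. Depth limits Tead3, Vgll3 and Tead4, with 0 to 46 reads per library.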
